A study of Mus musculus with 6 samples.

Results

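The enzymes that put methyl groups on histones and DNA, and those that take them off, were followed in 2 culture media in B16F10, a long-established line of mouse melanoma cells. They were chosen by gene symbol (Kdm, Kmt, Setd and Tet followed by a digit, and Suv, Ezh and Dnmt) and by a mean level of at least 1 FPKM over the 6 libraries. FPKM is a fragment count scaled to the length of the gene and to the total of mapped fragments. In all, 45 of 21878 deposited genes had such a symbol, and 42 of these passed the level. They were 19 demethylases (16 Kdm genes and 3 Tet genes) and 23 methyltransferases. All lie among the 10624 genes that passed the same level and were tested.

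RNA of wild-type B16F10 cells was sequenced as 3 libraries from cells kept in DMEM and 3 from cells kept in RPMI-1640, both basal media with 10% fetal bovine serum and antibiotics. Each library was built from 2 µg of total RNA, and no gene was altered in either group. The titles of the DMEM libraries carry the unexplained code HG, and the codes 3 (DMEM) and 1 (RPMI-1640) in the titles run wholly with the medium, so what they mark cannot be told apart from it. The treatment protocol in the labels is one for adipogenic differentiation with dexamethasone, isobutylmethylxanthine and insulin, while every library is labelled as time 0. Whether any of these drugs was given to the cells is not clear from the labels. Whether replicate libraries stem from separate cultures is not said, so p-values here reflect only the spread between them, which may be technical.

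Library totals recovered from the FPKM steps ran from 36960000 to 46404000 reads and overlapped between the media. The FPKM summed over all genes did not overlap, at 475993 to 499334 in the DMEM libraries and 431400 to 439693 in the RPMI-1640 libraries. A gene of median length at 1 FPKM had 105 to 132 reads per library. All 8 melanocyte markers were expressed (2 higher, 4 lower and 2 not called), and their summed level was 13400 to 13600 FPKM in DMEM and 10900 to 11100 FPKM in RPMI-1640. Of the markers of other cells, 3 of 5 for leukocytes (Ptprc, Adgre1 and Cd3e), 4 of 6 for adipocytes (Cidec, Lep, Fabp4 and Cfd), 2 of 3 for endothelium (Cdh5 and Kdr) and 1 of 5 for fibroblasts (Dcn) were at 0 in all 6 libraries. Summed levels in DMEM and RPMI-1640 were 2.43 to 2.76 and 1.67 to 1.82 FPKM for leukocytes, nearly all from Cd68, at most 0.614 and 0.0915 FPKM for adipocytes and at most 0.0873 and 0.0796 FPKM for endothelium. That of the fibroblast markers was 1.21 to 1.48 FPKM in DMEM and 3.61 to 4.30 FPKM in RPMI-1640, with Col1a2 at 0.567 and 3.10 FPKM. The part of these levels in the results was not tested. In bulk RNA, fewer cells of a type and less RNA per cell cannot be told apart.

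Methylation marks on histone tails are written by enzymes that take the methyl group from S-adenosylmethionine and are erased by flavin-dependent (Kdm1) or by iron- and 2-oxoglutarate-dependent (Jumonji-type Kdm) demethylases. Methylation of H3K4 marks active promoters and enhancers, that of H3K36 transcribed gene bodies, and that of H3K9, H3K27 and H4K20 mostly silent chromatin. On DNA, Dnmt1 copies methylation onto new strands, Dnmt3a and Dnmt3b place it anew, and the Tet enzymes oxidise methylcytosine as a step to its removal. Several of these genes, among them EZH2, KMT2D and TET2, are mutated or overexpressed in human cancers, and EZH2 is known for activating mutations in melanoma.

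More of the enzyme genes were higher in RPMI-1640 than lower. In limma on log2(FPKM + 1), fitted on all tested genes with an adjusted p under 0.05 called, 29 of the 42 genes rose, 3 fell and 10 were not called. Over all tested genes 76.0% were called, 40.6% higher and 35.4% lower, so the share of enzymes called in either direction was close to that of the table, and the share called higher, 69.0%, was above it. The median log2 fold change (RPMI-1640 minus DMEM, as throughout) was 0.51 for the enzymes and 0.033 for all tested genes. In 32 of the 42 genes (76.2%) no DMEM value overlapped the RPMI-1640 values, beside 79.0% of all tested genes. This scale understates the change of genes at low levels.

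**Figure D1:**
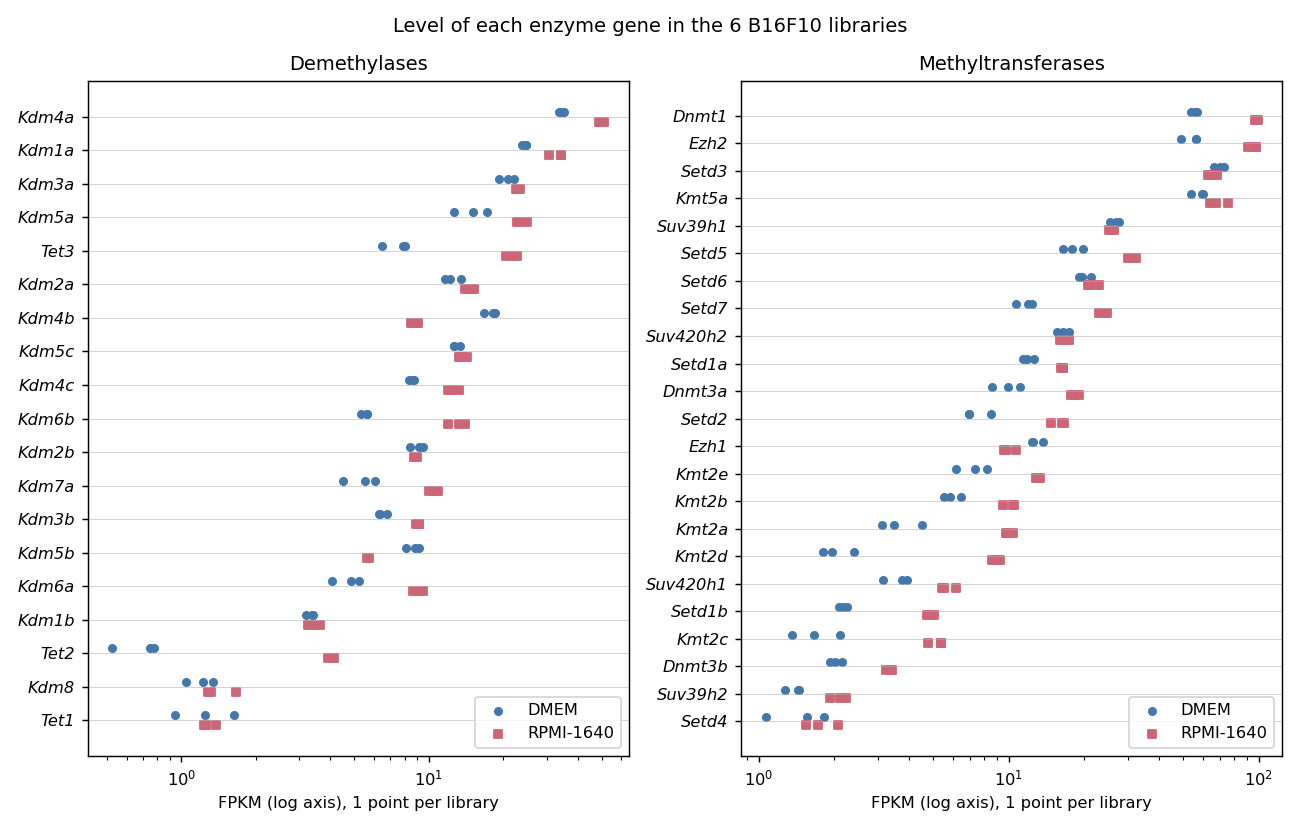
FPKM of each of the 42 enzyme genes in every library, on a log axis, with 1 point per library (blue circles for DMEM, red squares for RPMI-1640) and the genes of each class sorted by level. Tet2 has the widest gap between the media, Kdm4b and Kdm5b lie higher in DMEM, and Dnmt1, Ezh2, Setd3 and Kmt5a are the highest of the methyltransferases.

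Gene length has to be read beside these counts. Across 10548 tested genes with a length and a GC content, longer genes had higher fold changes (Spearman's correlation 0.464) and GC-rich genes lower ones (-0.47), a description over genes that share the 6 libraries. The enzymes are long, with a median length of 5974 bases against 2838 for all tested genes. Within the 42 the correlation of the log2 fold change with length was 0.648, and with GC content it was -0.0552. With the trend removed these were 0.154 and 0.436, so the removal left the 42 genes with a relation to GC content that the deposited values did not have. Values with the trend of length and GC content removed from each library are therefore given beside the deposited ones. On that scale 27 of the 42 rose, 10 fell and 5 were not called, where 37.1% of all tested genes were called higher and 36.8% lower, 73.9% in all. The median of the 42 was then 0.27 and that of all genes -0.0006.

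**Figure D2:**
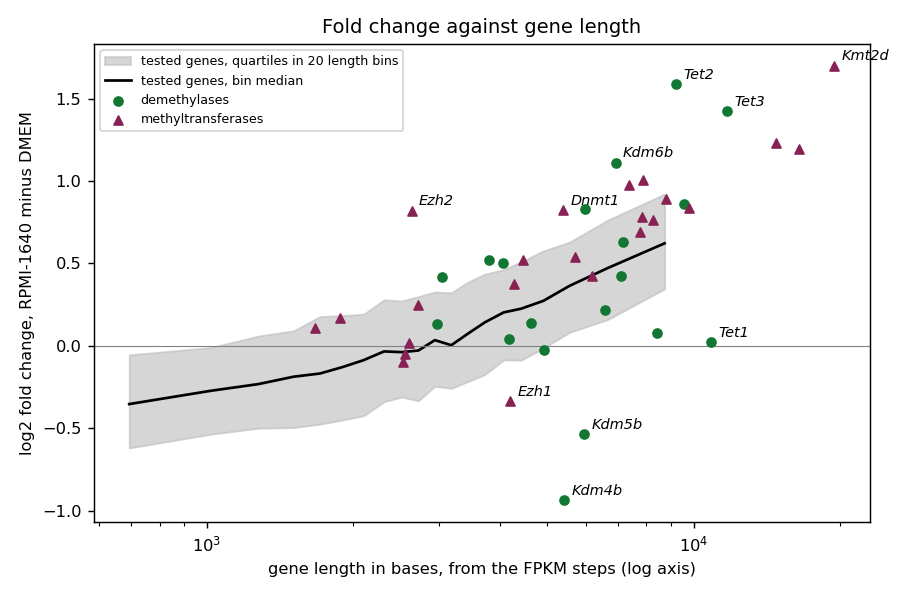
Log2 fold change (RPMI-1640 minus DMEM, log2(FPKM + 1)) against gene length on a log axis for the demethylases (green circles) and methyltransferases (purple triangles). The grey band holds the middle quartiles of all tested genes in 20 length bins and the line their median; Kdm6b, Ezh2 and Dnmt1 lie above the band, Ezh1, Kdm5b and Kdm4b below it, and Tet1, Tet2, Tet3 and Kmt2d beyond its end among the longest genes.

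The 3 DNA methyltransferases that passed the level all rose, where 40.6% of all tested genes were called higher. Dnmt1, the maintenance enzyme, stood at 53.6, 56.5 and 55.6 FPKM in DMEM and at 98.9, 99.3 and 96.9 FPKM in RPMI-1640. Every RPMI-1640 library lay far above every DMEM library, and Dnmt1 was the highest of the 42 genes by mean level. It was 1.78-fold higher in RPMI-1640 (55.2 ± 1.44 against 98.4 ± 1.31 FPKM, mean ± SD, n = 3 each, as for all such values), with a log2 fold change of 0.82 (SE 0.044, limma adjusted p = 4.26e-08) and 0.70 with the trend removed. The gene spans 20907209 to 20959888 on chromosome 9 (GRCm38, minus strand). Dnmt3a, a de novo enzyme, rose 1.86-fold, from 9.88 ± 1.27 to 18.4 ± 0.674 FPKM, with a log2 fold change of 0.84 that was 0.35 with the trend removed. Dnmt3b, the other de novo enzyme, was lower in level and rose 1.65-fold, from 2.03 ± 0.109 to 3.35 ± 0.0932 FPKM (0.52, or 0.48 with the trend removed). Of its 32-base sequence words 15.3% also occur in other genes, mainly Dnmt3c. Antisense genes overlap both Dnmt3a and Dnmt3b, and whether counting used strand is not given. The summed level of the 3 genes was 67.1 ± 2.12 FPKM in DMEM and 120.0 ± 1.91 FPKM in RPMI-1640.

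Proliferation genes were also higher in RPMI-1640. All 8 of Mki67, Top2a, Ccnb1, Pcna, Mcm2, Mcm5, Rrm2 and Ccna2 rose, on both scales. Of all tested genes, 40.6% were called higher, or 37.1% with the trend removed. The median log2 fold change of the 8 genes was 0.59, or 0.37 with the trend removed. Their summed level was 932 to 947 FPKM in DMEM and 1370 to 1420 FPKM in RPMI-1640. Their part in the rise of Dnmt1, and in that of the H3K27 methyltransferase Ezh2, was not tested.

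E2F factors drive many genes of DNA replication, and words of the E2F site were looked for around the starts of the enzymes, from 250 bases before to 50 after, in RefSeq's GRCm38.p6 promoters, where 34 of the 42 genes had an entry. The words were TTTGGCGC, TTTCGCGC, TTTCCCGC and TTTGCCGC on both strands. They occurred in 4 of the 49 windows of these genes (8.16%) and in 2.26% of all 32851 windows. The 4 genes were Dnmt1, with a word on each side of the third of its 3 listed starts, Ezh2, Suv39h1 and Suv420h2. Dnmt1 and Ezh2 rose, while Suv39h1 and Suv420h2 were not called on the deposited values. With the trend removed Suv420h2 was called higher as well. The matches are shown in the direction of the gene, with the word in capitals, because these are the enzymes that carry it.
Dnmt1 before the start, minus strand of chr9:20952824-20952853: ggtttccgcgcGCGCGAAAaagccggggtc
Dnmt1 after the start, minus strand of chr9:20952574-20952601: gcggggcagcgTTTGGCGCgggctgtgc
Ezh2, minus strand of chr6:47595009-47595038: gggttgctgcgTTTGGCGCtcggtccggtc
Suv39h1, minus strand of chrX:8074407-8074436: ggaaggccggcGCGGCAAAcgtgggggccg
Suv420h2, plus strand of chr7:4740011-4740040: ggccagaagagGCGGGAAAaagagagcaat
The first base of the word was 219 bases before and 34 after the start in Dnmt1, 4 after it in Ezh2, and 64 and 105 before it in Suv39h1 and Suv420h2. The core of the hypoxia response element (ACGTG or GCGTG, both strands) was in 30 of the 49 windows (61.2%) and in 43.8% of all windows. The windows of the enzymes held a median of 28 CpG and all windows a median of 7, and each of the words searched contains a CG. In Suv39h1 the end of the E2F word overlaps an ACGTG. A match is a description of letters and not of binding.

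Among the Tet enzymes, Tet2 and Tet3 rose and Tet1 was not called. Tet2 stood at 0.776, 0.744 and 0.525 FPKM in DMEM and at 4.13, 4.10 and 3.91 FPKM in RPMI-1640. The media were far apart, and Tet2 passed the level of 1 FPKM only through its RPMI-1640 libraries. The fold of 5.93 (0.682 ± 0.137 against 4.05 ± 0.122 FPKM) was the largest of the 42 genes and rested on 224 to 1710 reads per library. Its log2 fold change came to 1.59 (SE 0.082, limma adjusted p = 3.57e-08), and 0.88 with the trend removed. Tet2 spans 133463679 to 133545139 on chromosome 3 (GRCm38, minus strand), with the antisense gene Gm42567 over it.

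Tet3, the most abundant Tet gene, stood at 7.90, 8.04 and 6.48 FPKM in DMEM and at 22.8, 21.6 and 20.5 FPKM in RPMI-1640. The groups did not overlap, and the rise was 2.90-fold (log2 fold change 1.42, SE 0.079, limma adjusted p = 5.35e-08, or 0.90 with the trend removed). Tet1 stood at 1.25, 1.64 and 0.942 FPKM in DMEM and at 1.26, 1.24 and 1.38 FPKM in RPMI-1640, with overlapping groups and a log2 fold change of 0.02 (limma adjusted p = 0.865). With the trend removed it passed as lower, at -0.82 (limma adjusted p = 4.58e-06). Tet1 was also the gene nearest to the level limit from above, with a mean of 1.28 FPKM, next to Kdm8 at 1.31. Below the limit were Kdm4d, a testis-type H3K9 demethylase, with 0 to 4 reads per library, Dnmt3l, a cofactor of de novo methylation, with 1 read in 1 library, and the Y-linked Kdm5d with 0 reads.

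The 7 H3K4 methyltransferases all rose, both on the deposited values and without the trend. Over all tested genes 40.6% were called higher and 35.4% lower, or 37.1% and 36.8% with the trend removed. Kmt2d, the enhancer methyltransferase also called MLL4, stood at 1.97, 2.40 and 1.81 FPKM in DMEM and at 8.95, 9.21 and 8.60 FPKM in RPMI-1640. The groups were well apart, and the log2 fold change of 1.70 (SE 0.082, limma adjusted p = 2.34e-08) was the largest of the 42 on that scale, a 4.33-fold rise. It was 1.06 with the trend removed, where it was also the largest. Kmt2d spans 98831669 to 98871204 on chromosome 15 (GRCm38, minus strand), and was the longest of the 42 genes by its FPKM steps (19475 bases).

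Kmt2a, or MLL1, which acts at promoters of Hox and other developmental genes, stood at 3.49, 4.52 and 3.12 FPKM in DMEM and at 9.84, 10.4 and 9.74 FPKM in RPMI-1640. It rose 2.69-fold, with a log2 fold change of 1.23 (SE 0.098, limma adjusted p = 5.92e-07) that was 0.49 with the trend removed. Kmt2c, the partner enzyme of Kmt2d at enhancers, stood at 1.67, 2.12 and 1.36 FPKM in DMEM and at 5.39, 5.35 and 4.78 FPKM in RPMI-1640. Its log2 fold change of 1.19 (SE 0.0999, limma adjusted p = 8.79e-07) was 0.28 with the trend removed. For both genes the groups did not overlap, and DMEM replicate 3, the lowest library for each, was also the DMEM library with the code L3 in its title, which the labels do not explain.

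Setd1b, a catalytic subunit of the COMPASS complex that methylates H3K4 at promoters, stood at 2.10, 2.25 and 2.18 FPKM in DMEM and at 4.72, 5.04 and 4.90 FPKM in RPMI-1640. The libraries of a medium lay close together, and the rise was 2.25-fold (log2 fold change 0.89, SE 0.069, limma adjusted p = 4.87e-07, or 0.65 with the trend removed). Setd7, a monomethyltransferase of H3K4 and of many other proteins, stood at 11.96, 12.4 and 10.7 FPKM in DMEM and at 24.03, 24.7 and 23.1 FPKM in RPMI-1640. It rose 2.05-fold without overlap, with a log2 fold change of 0.98 (SE 0.064, limma adjusted p = 1.60e-07) that was 0.46 with the trend removed. Kmt2b, or MLL2, rose from 5.93 ± 0.484 to 10.2 ± 0.566 FPKM (0.69, or 0.52 with the trend removed). Setd1a, the paralogue of Setd1b, had a log2 fold change of 0.42 (0.32 with the trend removed), which is uncertain because 54.5% of its words are shared, mainly with the overlapping gene Gm49388.

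The 5 H3K4 demethylases went different ways, with 2 higher, 1 lower and 2 not called. Over all tested genes the shares were 40.6% higher and 35.4% lower. Kdm1a, or LSD1, the flavin-dependent demethylase of the CoREST complex, stood at 24.8, 24.7 and 23.9 FPKM in DMEM and at 34.2, 34.2 and 30.7 FPKM in RPMI-1640. The groups did not overlap, and Kdm1a rose 1.35-fold (log2 fold change 0.42, SE 0.056, limma adjusted p = 3.58e-05, or 0.48 with the trend removed). Its paralogue Kdm1b was at 3.33 ± 0.119 and 3.45 ± 0.192 FPKM and was not called, at 0.04, but passed as lower with the trend removed, at -0.29.

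Kdm5b, a JARID1 demethylase known in human melanoma as a marker of slow-cycling cells, fell 1.53-fold. It stood at 8.80, 9.18 and 8.10 FPKM in DMEM and at 5.61, 5.68 and 5.71 FPKM in RPMI-1640, with no overlap, and it had a log2 fold change of -0.54 (SE 0.066, limma adjusted p = 1.79e-05), or -0.95 with the trend removed. Kdm5a, of the same family, rose from 14.98 ± 2.25 to 23.6 ± 1.22 FPKM (0.63), but this was -0.01 and not called with the trend removed. Kdm5c, the X-linked member, had 0.08 and was not called, and passed as lower at -0.30 with the trend removed. With the trend removed the 5 genes were thus 1 higher, 3 lower and 1 not called, against 7 higher among the 7 methyltransferases of the same residue. Of all tested genes, 37.1% were higher and 36.8% lower on that scale. The median GC content was 47.6% for these 5 demethylases and 57% for the 7 methyltransferases. The part of GC content in this contrast was not tested.

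On H3K27 the methyltransferase Ezh2 and the demethylases Kdm6a and Kdm6b rose, and the methyltransferase Ezh1 fell. Ezh2, the catalytic subunit of Polycomb complex PRC2 in dividing cells, stood at 56.0, 56.1 and 49.0 FPKM in DMEM and at 97.9, 97.8 and 90.5 FPKM in RPMI-1640. The groups were far apart, and replicate 3 was the lowest library of each medium. Ezh2 rose 1.78-fold (log2 fold change 0.82, SE 0.061, limma adjusted p = 3.59e-07, or 0.65 with the trend removed), and spans 47530139 to 47595341 on chromosome 6 (GRCm38, minus strand). Ezh1, its paralogue typical of non-dividing cells, was the only methyltransferase called lower on the deposited values, at 13.7, 12.4 and 12.5 FPKM in DMEM and 9.72, 9.61 and 10.7 FPKM in RPMI-1640. Its log2 fold change came to -0.34 (SE 0.066, limma adjusted p = 6.79e-04), or -0.42 with the trend removed.

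Kdm6b, or JMJD3, an inducible H3K27 demethylase, stood at 5.33, 5.62 and 5.62 FPKM in DMEM and at 13.3, 14.01 and 12.02 FPKM in RPMI-1640. It rose 2.37-fold without overlap, with a log2 fold change of 1.11 (SE 0.069, limma adjusted p = 1.15e-07) that stayed at 1.00 with the trend removed. The antisense gene Kdm6bos overlaps it. Kdm6a, or UTX, an X-linked H3K27 demethylase that works with Kmt2c and Kmt2d, stood at 4.84, 5.21 and 4.05 FPKM in DMEM and at 9.52, 9.12 and 8.61 FPKM in RPMI-1640. Its log2 fold change came to 0.83 (SE 0.084, limma adjusted p = 3.73e-06), or 0.25 with the trend removed.

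On H3K9, 1 of the 2 Suv39 methyltransferases rose, and of the 6 demethylases 5 rose and 1 fell. The shares over all tested genes were 40.6% higher and 35.4% lower. Suv39h1, a writer of H3K9 trimethylation in heterochromatin, was at 26.6 ± 1.19 and 25.7 ± 0.731 FPKM and was not called on either scale (log2 fold changes -0.05 and -0.01). Suv39h2, its paralogue, rose from 1.39 ± 0.0936 to 2.09 ± 0.158 FPKM (0.37) and was at -0.01 and not called with the trend removed. Kdm4b, which demethylates H3K9 and H3K36, had the largest fall of the 42 genes on the deposited values, and the second after Kdm5b with the trend removed. It stood at 16.7, 18.6 and 18.2 FPKM in DMEM and at 8.47, 8.97 and 9.05 FPKM in RPMI-1640. Every DMEM library was well above every RPMI-1640 library, and the DMEM level was 2.02 times that in RPMI-1640 (log2 fold change -0.94, SE 0.062, limma adjusted p = 1.77e-07), with the same value when the trend was removed. Kdm4b spans 56326062 to 56402870 on chromosome 17 (GRCm38, plus strand).

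The other Kdm4 genes went the opposite way. Kdm4a rose from 34.4 ± 0.679 to 49.8 ± 1.35 FPKM (log2 fold change 0.52, and 0.57 without the trend), and Kdm4c from 8.54 ± 0.220 to 12.5 ± 0.637 FPKM (0.50, or 0.16). Both were called higher on both scales. Kdm7a, a demethylase of H3K9 and H3K27, stood at 5.50, 6.07 and 4.50 FPKM in DMEM and at 10.9, 10.5 and 10.1 FPKM in RPMI-1640. Its rise of 0.86 (SE 0.089, limma adjusted p = 4.27e-06) was -0.01 and not called with the trend removed, and it is the gene with the lowest GC content of the 42 (39.6%). Kdm3a, an H3K9 demethylase induced by hypoxia, stood at 20.9, 22.04 and 19.2 FPKM in DMEM and at 22.4, 23.0 and 23.3 FPKM in RPMI-1640. The groups lay next to each other without overlap, and the log2 fold change of 0.14 just passed (SE 0.059, limma adjusted p = 0.0468). With the trend removed it passed with the other sign, at -0.21 (limma adjusted p = 6.53e-04). It also lost the call when any library but DMEM replicate 2 was left out (log2 fold change 0.09 to 0.16). Its paralogue Kdm3b rose from 6.48 ± 0.280 to 9.04 ± 0.122 FPKM (0.43, or 0.14).

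On H3K36 the methyltransferase rose and the Kdm2 demethylases moved little. Setd2, which trimethylates H3K36 along transcribed genes, stood at 6.93, 8.48 and 6.91 FPKM in DMEM and at 16.6, 16.3 and 14.8 FPKM in RPMI-1640. The groups did not overlap and the rise was 2.14-fold (log2 fold change 1.01, SE 0.081, limma adjusted p = 6.66e-07, or 0.34 with the trend removed). Kdm2a, a demethylase that binds unmethylated CpG through a zinc finger, stood at 12.2, 13.5 and 11.7 FPKM in DMEM and at 14.0, 15.3 and 14.7 FPKM in RPMI-1640. Its log2 fold change of 0.22 (SE 0.066, limma adjusted p = 0.0101) turned to -0.22 and was called lower with the trend removed, and it lost the call without RPMI-1640 replicate 2 (0.19, limma adjusted p = 0.0525). Kdm2b, of the same build, had -0.02 and was not called, or -0.14 and called lower with the trend removed. It shares 13.2% of its sequence words with other genes, mainly Gm12397.

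Of the 3 H4K20 methyltransferases 2 rose and 1 was not called, beside 40.6% higher over all tested genes. Kmt5a, which monomethylates H4K20 and is tied to the cell cycle, rose from 57.6 ± 3.35 to 68.7 ± 5.93 FPKM (log2 fold change 0.25, and 0.26 without the trend). Suv420h1, which adds the further methyl groups, rose from 3.61 ± 0.408 to 5.70 ± 0.382 FPKM (0.54) and was at 0.13 and not called with the trend removed. Suv420h2, its paralogue, was at 16.6 ± 0.934 and 16.7 ± 0.649 FPKM and not called (0.02), but passed as higher at 0.34 with the trend removed. For these 3 the call thus rested on the scale in 2 of 3 cases.

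The remaining 6 genes carry the names of these families while their histone activity is in doubt or their known substrate is another protein. Kmt2e, which has a SET domain without known activity, rose from 7.23 ± 0.994 to 13.1 ± 0.213 FPKM (log2 fold change 0.78, and 0.17 without the trend), and Setd5 from 18.1 ± 1.67 to 31.4 ± 1.26 FPKM (0.76, or 0.27). Setd3, the actin histidine methyltransferase, was at 69.9 ± 3.20 and 65.1 ± 2.61 FPKM and was not called at -0.10 (limma adjusted p = 0.0954), but was called lower with the replicate number as a block (limma adjusted p = 0.0248) and with the trend removed (-0.21). Of the sequence words of Setd3 19.9% also occur in other genes, mainly Gm14026. Setd6, which methylates the NF-κB subunit RelA, had 0.11, Setd4 had 0.17 and Kdm8 had 0.13. None of these 3 was called, and all 3 passed as higher with the trend removed, at 0.45, 0.38 and 0.29. Setd4 rested on only 90 to 152 reads per library and Kdm8 on 115 to 192. Setd4 also shares 10.9% of its words, mainly with Gm44792.

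Demethylases and methyltransferases were then set side by side. The classes go by symbol and include the 6 genes with doubtful histone activity or another protein as substrate. These are Kdm8 among the demethylases and Kmt2e, Setd3, Setd4, Setd5 and Setd6 among the methyltransferases. Their summed level was 118 FPKM in DMEM and 134 FPKM in RPMI-1640. Of the 6, 2 were called higher, and 5 higher and 1 lower with the trend removed. Of the 19 demethylases 12 rose, 2 fell and 5 were not called, with a median log2 fold change of 0.42. Of the 23 methyltransferases 17 rose, 1 fell and 5 were not called, with a median of 0.69. These counts stand beside 40.6% higher and 35.4% lower over all tested genes, whose median was 0.033. With the trend removed the counts were 9 higher, 8 lower and 2 not called for the demethylases, with a median of -0.01, and 18 higher, 2 lower and 3 not called for the methyltransferases, with a median of 0.34. The classes have similar median lengths, 5994 and 5705 bases, and median GC contents of 48.3% and 50.6%. With the trend removed, the fold changes of the 42 genes ran with GC content (Spearman's correlation 0.436). The part of GC content in the difference between the classes was not tested. The summed level of the demethylases was 190.8 to 210.4 FPKM in DMEM and 262.6 to 270.2 FPKM in RPMI-1640, and that of the methyltransferases 390.9 to 410.8 and 557.5 to 585.1 FPKM. The summed levels of both classes were thus higher in RPMI-1640. With the trend removed, higher and lower calls were near balance among the demethylases, as among all tested genes (37.1% higher and 36.8% lower). Only 2 of the 19 demethylases were not called there, while 73.9% of all tested genes were called. The difference between the classes has no test of its own, since members are not replicates of a medium.

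**Figure D3:**
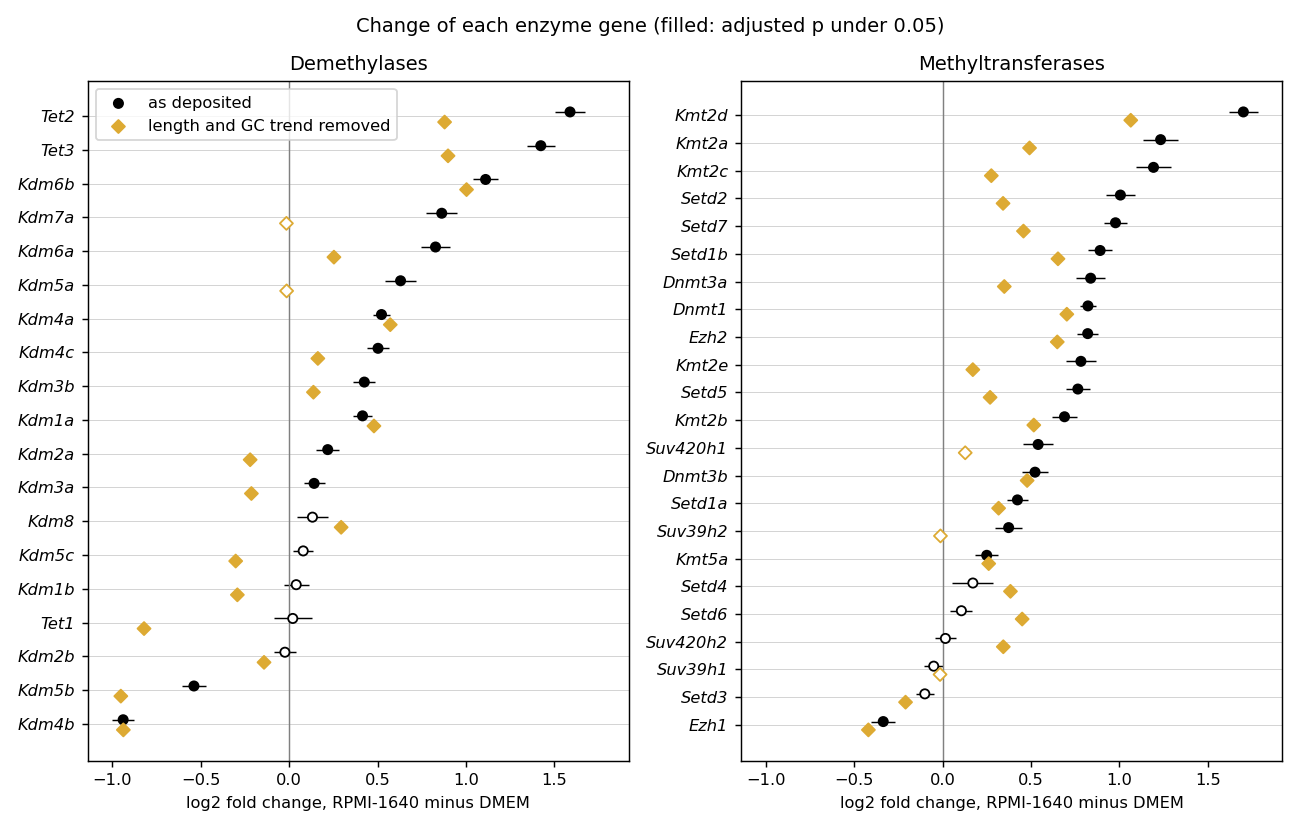
Log2 fold change of each enzyme gene (RPMI-1640 minus DMEM, log2(FPKM + 1)), with the standard error as a bar for the deposited values (black circles) and without a bar for the values with the length and GC trend removed (yellow diamonds); filled symbols have a limma adjusted p under 0.05. With the trend removed most demethylases shift left, Kdm6b by less than most, while Kdm1a, Kdm4a and Kdm8 shift right and Kdm4b hardly moves. On that scale 18 methyltransferases are filled to the right of 0, 15 of them also as deposited.

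Of the 32 calls on the deposited values, 23 higher and 3 lower calls were the same with the trend removed. The demethylases called higher on both were Kdm1a, Kdm3b, Kdm4a, Kdm4c, Kdm6a, Kdm6b, Tet2 and Tet3, and those lower on both Kdm4b and Kdm5b. All 15 methyltransferases higher on both include the 3 Dnmt genes, the 5 Kmt2 genes, Ezh2, Kmt5a, Setd1a, Setd1b, Setd2, Setd5 and Setd7. The call of Kdm2a and Kdm3a turned from higher to lower.

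**Figure D4:**
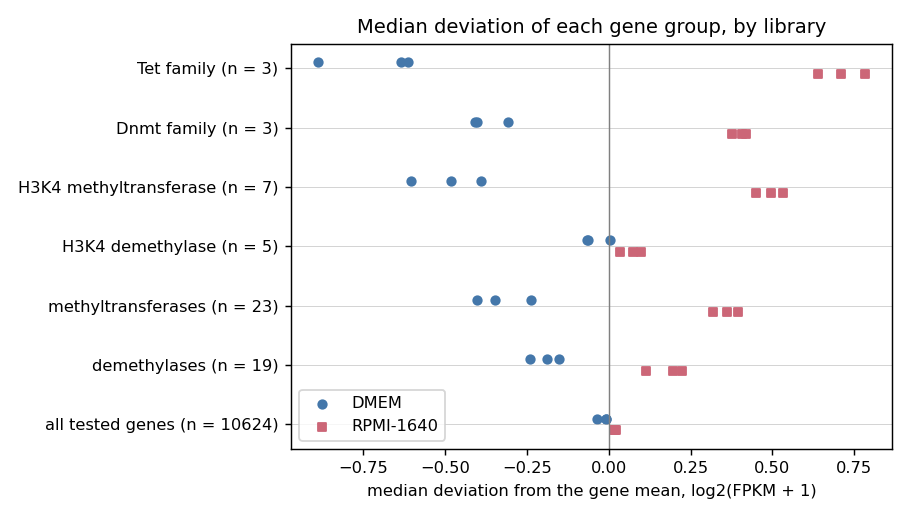
Median deviation from the gene mean, on log2(FPKM + 1), over the genes of each group in every library (blue circles for DMEM, red squares for RPMI-1640). The media are separated in every group shown, all tested genes included, and most widely for the Tet genes, the H3K4 methyltransferases and the Dnmt genes. The H3K4 demethylases lie between -0.066 and 0.10 in all 6 libraries. DMEM replicate 3 is the lowest library for the Tet genes, at -0.89. The Tet median stands for 3 genes, of which Tet1 overlaps between the media.

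Ratios between paralogues were compared between the media. FPKM is per length, so the levels of 2 genes can be compared, and the log2 ratio was taken in each library for 16 pairs. The groups did not overlap for 13 pairs, a share like that of single genes in the whole table (79.0%). For these 13 the exact permutation test (two-sided, 3 libraries against 3) gave p = 0.1, its smallest possible value (0.123 adjusted over the 16 pairs), so no pair can pass 0.05 in this design.

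On the ratio of FPKM the Kdm4 and Kdm5 families gave the widest shifts, and with the trend removed Kdm4 and Ezh did. Kdm4a was 2.02, 1.88 and 1.88 times the level of Kdm4b in the DMEM libraries and 5.84, 5.42 and 5.67 times in the RPMI-1640 libraries, a difference in log2 ratio of 1.55. Kdm5a was 1.72, 1.87 and 1.56 times Kdm5b in DMEM and 4.45, 4.04 and 4.0 times in RPMI-1640 (1.28). Both shifts remained on log2(FPKM + 1) with the trend removed, at 1.51 and 0.94. In PRC2, Ezh2 was 4.07, 4.52 and 3.91 times Ezh1 in DMEM and 10.1, 10.2 and 8.46 times in RPMI-1640, a difference in the log2 ratio of Ezh1 to Ezh2 of -1.20, or -1.07 with the trend removed.

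Other ratios depended on the scale. Tet3 was 10.2, 10.8 and 12.3 times Tet2 in DMEM and 5.51, 5.28 and 5.26 times in RPMI-1640, a difference in the log2 ratio of Tet2 to Tet3 of 1.05. On log2(FPKM + 1) this was 0.17, and -0.02 with the trend removed. Kmt2a over Kmt2b (0.67) and Suv39h1 over Suv39h2 (-0.65) were 0.54 and -0.42 on log2(FPKM + 1) and -0.02 and -0.002 with the trend removed. Setd1a over Setd1b (-0.71), Kmt2c over Kmt2d (-0.51), Kdm1a over Kdm1b (0.38), Kdm3a over Kdm3b (-0.33) and Kdm6a over Kdm6b (-0.29) kept their sign there (-0.34, -0.79, 0.77, -0.35 and -0.75). Suv420h1 over Suv420h2 (0.64) and Kdm2a over Kdm2b (0.26) changed sign (-0.22 and -0.08). The groups overlapped for Kdm4a over Kdm4c, Dnmt3a over Dnmt3b and Dnmt1 over Dnmt3a, with differences of -0.02, 0.18 and -0.07 and exact permutation p of 0.9, 0.4 and 0.9 (2 of them 0.9 after adjustment and that of Dnmt3a over Dnmt3b 0.457).

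**Figure D5:**
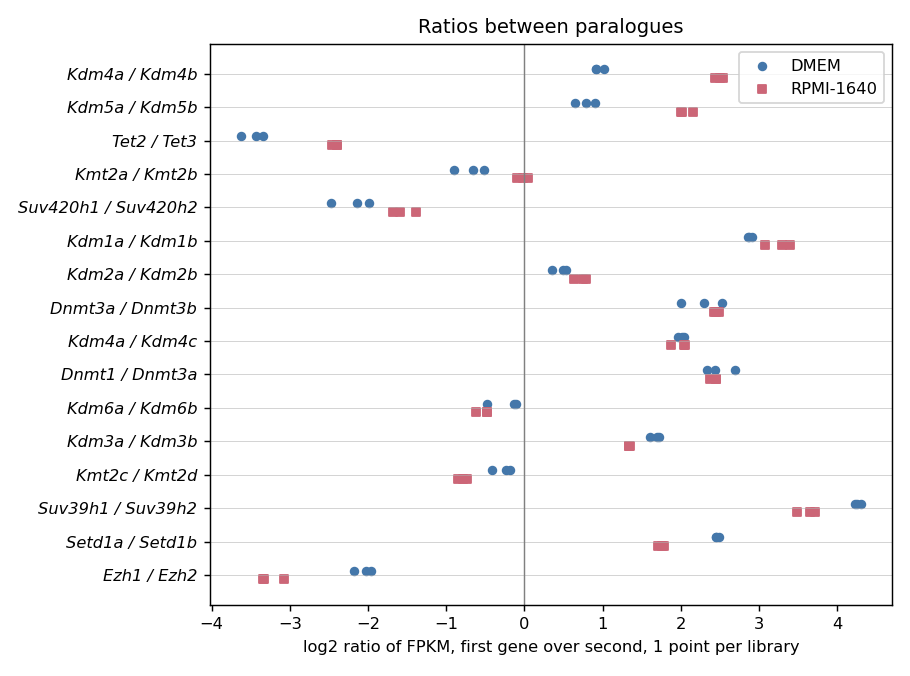
Log2 ratio of FPKM of the first gene over the second for 16 pairs of related enzymes, with 1 point per library (blue circles for DMEM, red squares for RPMI-1640), sorted by the difference between the media. The media lie furthest apart for Kdm4a over Kdm4b at the top, then for Kdm5a over Kdm5b. In the other direction they do so for Ezh1 over Ezh2 at the bottom. They overlap for Dnmt3a over Dnmt3b, Kdm4a over Kdm4c and Dnmt1 over Dnmt3a.

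Enzymes of the same kind with other symbols moved both ways. Of 33 tested, 20 rose, 7 fell and 6 were not called (median log2 fold change 0.22, and 0.02 without the trend, with 14 then higher and 7 lower), beside 40.6% higher and 35.4% lower over all tested genes, and 37.1% and 36.8% with the trend removed. Jmjd6, a 2-oxoglutarate-dependent oxygenase that hydroxylates lysine, fell from 62.2 to 27.7 FPKM (-1.14, or -0.88). Jmjd1c, a relative of Kdm3a, rose from 6.46 to 15.3 FPKM (1.13, or 0.34), and Ash1l, an H3K36 methyltransferase, from 7.63 to 17.0 FPKM (1.07, or 0.39).

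The complexes around the enzymes, whose counts stand against 40.6% higher and 35.4% lower over all tested genes, and 37.1% and 36.8% with the trend removed, had more members higher than lower. Of 9 PRC2 partners 7 rose, 0 fell and 2 were not called (median 0.44, and 0.13 without the trend, where 5 were higher and 2 lower). Suz12, a core subunit needed for Ezh2 activity, rose from 38.3 to 67.2 FPKM (0.80, or 0.37), Mtf2 by 0.66 (0.15) and Phf1 by 0.61 (0.92), both accessory subunits that bind DNA. Of 13 COMPASS partners 8 rose, 2 fell (Men1 and Pagr1a) and 3 were not called (median 0.22, or 0.15 with the trend removed, with 7 then higher and 2 lower). Hcfc1, a scaffold of Setd1 complexes, rose from 20.8 to 39.8 FPKM (0.91, or 0.55), Psip1, which tethers Kmt2a to chromatin, from 25.5 to 45.7 FPKM (0.82, or 0.63), and Ncoa6, of the Kmt2c and Kmt2d complexes, by 0.80 (0.47). Of 10 LSD1 corepressor partners 6 rose, 1 fell and 3 were not called (median 0.37, or 0.21 with the trend removed, with 8 then higher and 1 lower), among the risers the CoREST-type scaffold Rcor3 (0.73, or 0.49) and Phf21a (0.57, or 0.43), which reads unmethylated H3K4.

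Of 10 tested partners of DNA methylation 6 rose, 1 fell and 3 were not called (median 0.32, or 0.26 with the trend removed, with 7 then higher and 2 lower), again beside 40.6% higher and 35.4% lower over all tested genes. Ogt, the O-GlcNAc transferase that binds Tet2 and Tet3, rose from 9.70 to 24.7 FPKM (1.27, or 0.77), and Hells, a remodeller needed for DNA methylation, from 22.7 to 42.0 FPKM (0.86, or 0.37). Cxxc5, a CpG-binding protein that interacts with Tet2, fell from 16.3 to 7.46 FPKM (-1.03, or -0.79). Of 8 readers of methylated DNA 5 rose, 2 fell and 1 was not called (median 0.30, or 0.04). Zbtb38 rose by 0.94 (0.51), and Mbd3, of the NuRD complex, had -0.57 (-0.07 and not called with the trend removed). Of 8 heterochromatin readers 6 rose and 2 fell (median 0.37, or 0.24), with the HP1 proteins Cbx5 (0.95, or 0.24) and Cbx3 (0.65, or 0.47) and the HUSH subunit Mphosph8 (0.63, or 0.38) most changed.

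Genes of the cofactors changed little, and their counts stand against 40.6% higher and 35.4% lower over all tested genes. Of 7 genes of S-adenosylmethionine supply 3 rose, 1 fell and 3 were not called (median 0.04, or 0.06 with the trend removed). Ahcyl1, related to the hydrolase that clears S-adenosylhomocysteine, rose by 0.42 (0.29), Mtap, of methionine salvage, by 0.30 (0.18), and Nnmt, which uses up methyl groups on nicotinamide, fell by 0.19 on the log2 scale (0.05 and not called with the trend removed). Of 14 enzymes that make or use 2-oxoglutarate, succinate, fumarate or 2-hydroxyglutarate 2 rose, 5 fell and 7 were not called (median -0.07, or -0.01). The succinate dehydrogenase subunits Sdhd (-0.47, or -0.29) and Sdhc (-0.43, or -0.25) were lower.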

How the data were processed

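The deposited values are FPKM, given by the authors library by library, per the table's header. The submitters' processing notes name GRCm38 and mm10; the aligner, counter, annotation and use of strand: not given in the sources used here. Whole reads were recovered from the FPKM steps for 10623 of 10624 tested genes (99.99%, tolerance 0.001), which gave depth and gene length. The number of the table's columns left out was 0.

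The 10624 genes that averaged 1 FPKM or more went into limma 3.58.1 (R 4.3.3; lmFit, then eBayes allowing a mean-variance trend) on log2(FPKM + 1), medium as the only term, two-sided, with Benjamini-Hochberg adjustment over all 10624 genes and an adjusted p under 0.05 called. For the trend, natural splines (5 degrees of freedom each) of log2 length and of GC content were fitted to each library's departures from the gene means and subtracted (10548 genes). Positions, GC content and 32-base words shared with other genes came from GENCODE M21 (GRCm38), by symbol, with a GC value for 99.3% of tested genes; promoter windows came from RefSeq (GRCm38.p6). The test was tested on simulated data. Other steps used scipy 1.17.1, pandas 2.3.3, statsmodels 0.14.6, numpy 2.4.6 and, for figures, matplotlib 3.10.9, in Python 3.11.15.

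The enzymes, partner lists and pairs were chosen with earlier results of these data known. Values per library are given for the 6 genes of each class with the largest absolute change, for Dnmt1, Ezh2, Kdm1a and Kdm3a, and for genes that changed sign and stayed called with the trend removed; those of Tet1, Kdm5b and Ezh1 were added after their values were seen. Partner lists name up to 3 called genes with the largest change (some results are not reported here), and Men1, Pagr1a and the marker genes are named beside their counts. For pairing, deviations from the medium means correlated at 0.151, 0.150 and 0.382 between libraries with the same replicate number, all over 0.1, each best with its own number, so the numbers count as pairs. This comes from the data alone. With the trend removed the values were 0.0576, 0.0414 and 0.154, and only replicate 3 was best with its own number. The main fit and the permutation tests did not use the pairs, and fits with the replicate number as a block are given below.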

Additional observations from a re-analysis of the deposited data

How the results depend on the processing

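The counts of enzymes called higher (12 demethylases and 17 methyltransferases) stayed within 1.5 times under every alternative run, and leaving out each library in turn gave 10 to 12 and 17 to 18. With the length and GC trend removed, alone, with the replicate block or with a pseudocount of 0.1, 8 demethylases and 2 methyltransferases were called lower. The last of these was chosen after seeing the data. The replicate block on the deposited values gave 2 methyltransferases lower, through Setd3, as did leaving out DMEM replicate 3 (range 1 to 2), and it changed no other call. The demethylase median was 0.57 with a common total, 0.27 after quantile normalization, -0.014 with the trend removed, with or without the block, and -0.051 with a pseudocount of 0.1 there, with a range of 0.39 to 0.42 without single libraries. The methyltransferase median was 0.83 with a common total, 0.55 after quantile normalization, 0.34 with the trend removed, with or without the block, 0.38 with a pseudocount of 0.1 there, 0.76 with a mean of at least 5 FPKM, 0.78 and 0.77 with pseudocounts of 0.01 and 0.1, and 0.78 with voom on recovered reads, with a range of 0.65 to 0.74 without single libraries. The causes were not tested.

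Signs turned for 8 genes with the trend removed, with or without the block: Kdm1b (-0.29), Kdm2a (-0.22), Kdm3a (-0.21), Kdm5a (-0.014), Kdm5c (-0.30), Kdm7a (-0.015), Suv39h2 (-0.012) and Tet1 (-0.82). With a pseudocount of 0.1 there, 7 of them turned, at -0.32, -0.27, -0.25, -0.072, -0.36, -0.051 and -0.93. A common total turned Kdm2b (0.12), Setd3 (0.062) and Suv39h1 (0.11), and quantile normalization turned Kdm1b (-0.059), Kdm5c (-0.026), Setd3 (0.0027) and Suv420h2 (-0.062). Without single libraries the lowest and highest values were -0.067 and 0.012 for Kdm2b, -0.022 and 0.055 for Suv420h2 and -0.088 and 0.13 for Tet1. Kdm3a also lost its call without the filter (0.14) and after quantile normalization (0.10), as did Kdm2a after quantile normalization (0.12). Setd6 passed without DMEM replicate 3 (0.15), as did Setd3 (-0.13), and Kdm5c (0.23), Kdm8 (0.23), Setd6 (0.26) and Suv420h2 (0.17) passed as higher with a common total. Setd4, with 90 to 152 reads per library, and Kdm8, with 115 to 192, had the least depth.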
